A study of Mus musculus with 13 samples.

Results

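The 10 genes described here are the mitotic and interphase cyclins Ccna2, Ccnb1, Ccnb2, Ccnd1, Ccnd2, Ccnd3, Ccne1 and Ccne2 and the kinases Cdk1 and Cdk2. They were taken by name from the 57010 genes listed for each library, and their symbols were matched to the gene identifiers through the mouse annotation. All 10 were among the 15034 genes that passed the filter on low counts, so none was left out of the tests. RNA-Seq was done on wild-type mouse embryonic fibroblasts (WT MEFs), primary cells grown from embryos. The 4 groups were untreated control MEFs, untreated senescent MEFs (SnCs) made with 2 μM etoposide, and SnCs treated with Fucoidan-FV for 12 h before RNA was extracted, at doses of 100 and 300 μg/mL. Etoposide traps topoisomerase II on broken DNA, and Fucoidan-FV is a fucose-rich polysaccharide with sulfate groups from the seaweed Fucus vesiculosus. All groups carry the same wild-type genotype, and the labels number the mice 4, 5 and 6 in each group. Control mouse 5 had a pair of libraries, 5(1) and 5(2), which were summed, so that 13 libraries gave 3 mice per group. The comparisons ask which of these genes changed with senescence and whether Fucoidan-FV moved them in SnCs.

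Cyclins are the regulatory subunits that switch on cyclin-dependent kinases (CDKs), and each kind is made in its own window of the cell cycle. D-type cyclins respond to growth factors and drive Cdk4 and Cdk6 to phosphorylate the retinoblastoma protein, which frees E2F factors to turn on the E-type cyclins and other genes of DNA synthesis. Cyclin E with Cdk2 starts replication, cyclin A acts with Cdk2 and then Cdk1 through S and G2 phase, and cyclin B with Cdk1 drives mitosis. Senescent cells have left the cycle for good and hold these kinases down with inhibitors such as p21 and p16. In resting cells the promoters of many mitotic genes are kept silent through a short element called the CHR, which is often found near CCAAT boxes, while E2F sites serve many genes of G1 and S phase.

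Stretches just before the start of the main transcript of Ccnb2, Cdk1 and Cdk2 are shown because these genes fell with senescence and hold some of these elements. They were read from GRCm39 on the strand of the gene, at chr9:70328875-70329074 for Ccnb2, chr10:69188773-69188968 for Cdk1 and chr10:128540964-128541163 for Cdk2. Capitals mark the CHR letters TTTGAA, the CCAAT box (CCAAT, or ATTGG on the other strand) and the E2F letters TTTGGCGC, TTTCGCGC, TTTCCCGC or TTTGCCGC on either strand.
Ccnb2: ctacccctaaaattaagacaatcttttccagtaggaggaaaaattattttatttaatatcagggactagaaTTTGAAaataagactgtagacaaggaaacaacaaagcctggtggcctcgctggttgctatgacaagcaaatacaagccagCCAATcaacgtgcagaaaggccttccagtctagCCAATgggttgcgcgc
Cdk1: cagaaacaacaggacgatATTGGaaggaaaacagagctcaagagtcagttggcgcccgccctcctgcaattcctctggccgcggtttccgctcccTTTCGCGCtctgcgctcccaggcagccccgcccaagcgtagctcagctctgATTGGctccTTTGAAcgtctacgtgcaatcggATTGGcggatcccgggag
Cdk2: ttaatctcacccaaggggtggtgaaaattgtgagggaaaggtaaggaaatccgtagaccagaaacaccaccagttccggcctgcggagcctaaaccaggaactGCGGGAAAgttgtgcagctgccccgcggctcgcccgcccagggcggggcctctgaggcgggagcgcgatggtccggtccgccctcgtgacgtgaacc
In Cdk1 the CHR letters lay 40 to 45 bases before the start and a CCAAT box lay 50 to 54 bases before it, and the 4 bases nearest the start were left out because they are exon in another transcript. In Ccnb2 the nearest CCAAT boxes were 12 to 16 and 45 to 49 bases before the start, and the CHR letters were 124 to 129 bases before it. Over windows of 200 bases, the CHR letters were present in 3 of the 10 genes (Ccnb2, Cdk1 and Ccnd2) and in 11.9% of the 21770 protein-coding genes. In these windows 165 bases of Ccne2, 36 of Ccne1 and 15 of Ccnd3 are exon in a transcript of the same gene. A lack of matches there does not describe all starts of these genes. The CCAAT box was present in 3 of 10 (Ccnb2, Cdk1 and Ccnd3) and in 32.3% of all, and the E2F letters in 2 of 10 (Cdk1 and Cdk2) and in 1.98% of all. No matches overlapped each other in these genes, and the AP-1 letters TGAGTCA (3.22% of all) and the CRE letters TGACGTCA (1.59% of all), on either strand, were in none of them. Ccna2 and Ccnb1, which fell as far as Ccnb2, held no match in this window, and Ccnd2, which was not called, held the CHR letters. A match is a run of letters and not a measured site.

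Totals ran from 22782536 to 31278750 expected counts per library. The cells carried the markers of their label. All 10 fibroblast markers were at 1 TPM (a level scaled for transcript length and library size) or more in some library and summed to 9930 to 14900 TPM, against at most 15.8 TPM for leukocyte, 1.45 for endothelial and 2.06 for epithelial markers. The muscle list summed to 121 to 333 TPM through Acta1 and Des, with Myf5 at 0. Libraries also differed in genes that have a single transcript in the annotation used. The median of 974 such genes stood 1.35 log2 units below their mean over the samples in control mouse 6, 1.09 below it in library 5(1), 1.02 below it in mouse 4 at 300 μg/mL, 0.91 below it in senescent mouse 5 and as much as 1.10 above it in mouse 5 at 100 μg/mL. The median of genes with 5 to 7 transcripts moved by at most 0.08, which does not bound single genes. Ccnb2 is the only member with 1 transcript, and its values are given with this limit. Members with more transcripts differed between libraries too. Ccnd2, with 8, was 1.32 log2 units higher in library 5(2) than in 5(1). With 7 each, Ccne2, Cdk2, Ccnb1 and Cdk1 were 0.94, 0.90, 0.87 and 0.78 lower there.

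Senescence separated the members by their place in the cycle. In SnCs the E, A and B cyclins, Cdk1 and Cdk2 fell, by 3.09-fold for Cdk2 to 19.6-fold for Ccnb1, while the D cyclins were not called. A gene was called when the adjusted p of edgeR's quasi-likelihood test was under 0.05 and the log2 fold change was over 1 in size. By this rule 7 of the 10 members were called, all 7 lower, against 8.42% of all genes called and 3.95% called lower. The values of both groups did not overlap for 8 members, against 27.1% of all genes. The median log2 fold change was −2.60 over the members and 0.07 over all genes tested. In RNA of whole cultures, fewer cycling cells and less RNA per cell cannot be told apart.

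Ccnb1 and Ccnb2 encode the B cyclins of mitosis. Ccnb1 (ENSMUSG00000041431, chr13:100915153-100923116 of GRCm39, as for all positions given here, minus strand) was at 158, 145 and 167 CPM (counts scaled to library size with the TMM factors) in control mice 4, 5 and 6, and at 7.51, 10.9 and 5.54 CPM in the same order in SnCs. The lowest control value lay far above the highest senescent one, and the log2 fold change was −4.29 (edgeR adjusted p = 0.000871, SE 0.64). Ccnb2 (ENSMUSG00000032218, chr9:70314966-70328874, minus strand) was at 13.6, 11.4 and 1.88 CPM in control MEFs and at 0.607, 0.172 and 0.917 CPM in SnCs. Control mouse 6 was low among the controls, and it is the library that stood lowest in genes with 1 transcript. The groups still did not overlap, with a log2 fold change of −3.97 (adjusted p = 0.00588, SE 0.80), and of −4.49 (adjusted p = 0.00215) without the 4 libraries named above. Ccnb2 had 4 to 27 counts in the senescent libraries, so its level there was the least precise of the members.

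Ccna2 encodes cyclin A2 of S and G2 phase. Ccna2 (ENSMUSG00000027715, chr3:36619014-36626299, minus strand) was at 122, 104 and 103 CPM in control mice 4, 5 and 6 and at 5.59, 3.45 and 8.05 CPM in SnCs, and the groups lay far apart. The log2 fold change was −4.26 (adjusted p = 0.000204, SE 0.51), and 17.5% of its exonic bases are shared with Exosc9 on the other strand. Exosc9, a part of the RNA exosome, averaged 53.4 TPM in control MEFs and 67.2 TPM in SnCs. Cdk1 (ENSMUSG00000019942, chr10:69170976-69236595, minus strand), the kinase partner of cyclins A and B, was at 172, 158 and 153 CPM in control MEFs and at 15.8, 8.62 and 19.9 CPM in SnCs. Its log2 fold change was −3.44 (adjusted p = 6.46e-05, SE 0.35), the lowest adjusted p of the 10.

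Ccne1, Ccne2 and Cdk2 form the cyclin E kinase that starts replication. Ccne1 (ENSMUSG00000002068, chr7:37797404-37808264, minus strand) was at 41.1, 34.2 and 28.4 CPM in control mice 4, 5 and 6 and at 5.78, 4.18 and 11.8 CPM in SnCs, with mouse 6 the highest senescent value. The log2 fold change was −2.25 (adjusted p = 0.00158, SE 0.37). Ccne2 (ENSMUSG00000028212, chr4:11190303-11204947, plus strand) was at 52.6, 49.1 and 76.1 CPM in control MEFs and at 7.89, 9.66 and 5.3 CPM in SnCs. Mouse 6 was here the highest control and the lowest senescent value, and the log2 fold change was −2.96 (adjusted p = 9.78e-05, SE 0.32). Cdk2 (ENSMUSG00000025358, chr10:128533796-128540963, minus strand) was at 57.4, 64.8 and 51.5 CPM in control MEFs and at 15.9, 17.6 and 22.6 CPM in SnCs. Its log2 fold change of −1.63 (adjusted p = 0.000746, SE 0.24) was the smallest of the 7 that were called.

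The D cyclins, which link growth signals to Cdk4 and Cdk6, were not called in SnCs. Ccnd1 (ENSMUSG00000070348, chr7:144483668-144493662, minus strand) was at 143, 77 and 64.5 CPM in control mice 4, 5 and 6 and at 277, 172 and 115 CPM in SnCs. It was higher in SnCs in 3 of 3 mice, by 0.95, 1.16 and 0.84 log2 units, although the control value of mouse 4 lay above the senescent value of mouse 6. The log2 fold change was 0.99 (adjusted p = 0.0809, SE 0.34, 95% interval 0.25 to 1.72), short of the threshold in p and just short in size. With the mouse as a block it was 0.99 with an adjusted p of 0.00978, again not over 1. It was called without control mouse 4 (1.41, adjusted p = 0.0362), without senescent mouse 6 (1.26, adjusted p = 0.027) and with libraries 5(1) and 5(2) as separate samples (1.07, adjusted p = 0.0371). Without senescent mouse 4 it was 0.58 (adjusted p = 0.352), without control mouse 6 it was 0.80 (adjusted p = 0.234) and without control mouse 5 it was 0.87 (adjusted p = 0.241). Of the exonic bases of Ccnd1, 48.4% are shared with LTO1 on the other strand, which averaged 28.4 TPM in control MEFs and 78.7 TPM in SnCs. The kit marks strand but the strand setting of the counting was not given in the sources used here, and the part of LTO1 reads in the Ccnd1 counts was not tested.

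Ccnd2 (ENSMUSG00000000184, chr6:127102125-127129156, minus strand) was at 381, 379 and 197 CPM in control MEFs and at 494, 363 and 256 CPM in SnCs, and the groups overlapped. The log2 fold change was 0.22 (adjusted p = 0.746, SE 0.32, 95% interval −0.47 to 0.90), and it was −0.30 without the 4 libraries low in genes with 1 transcript. Ccnd3 (ENSMUSG00000034165, chr17:47815767-47910624, plus strand) was at 170, 192 and 157 CPM in control MEFs and at 201, 213 and 256 CPM in SnCs. All 3 senescent values lay above all 3 control values, yet the log2 fold change of 0.37 (adjusted p = 0.261, SE 0.19, 95% interval −0.05 to 0.79) did not pass the test.

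**Figure D1:**
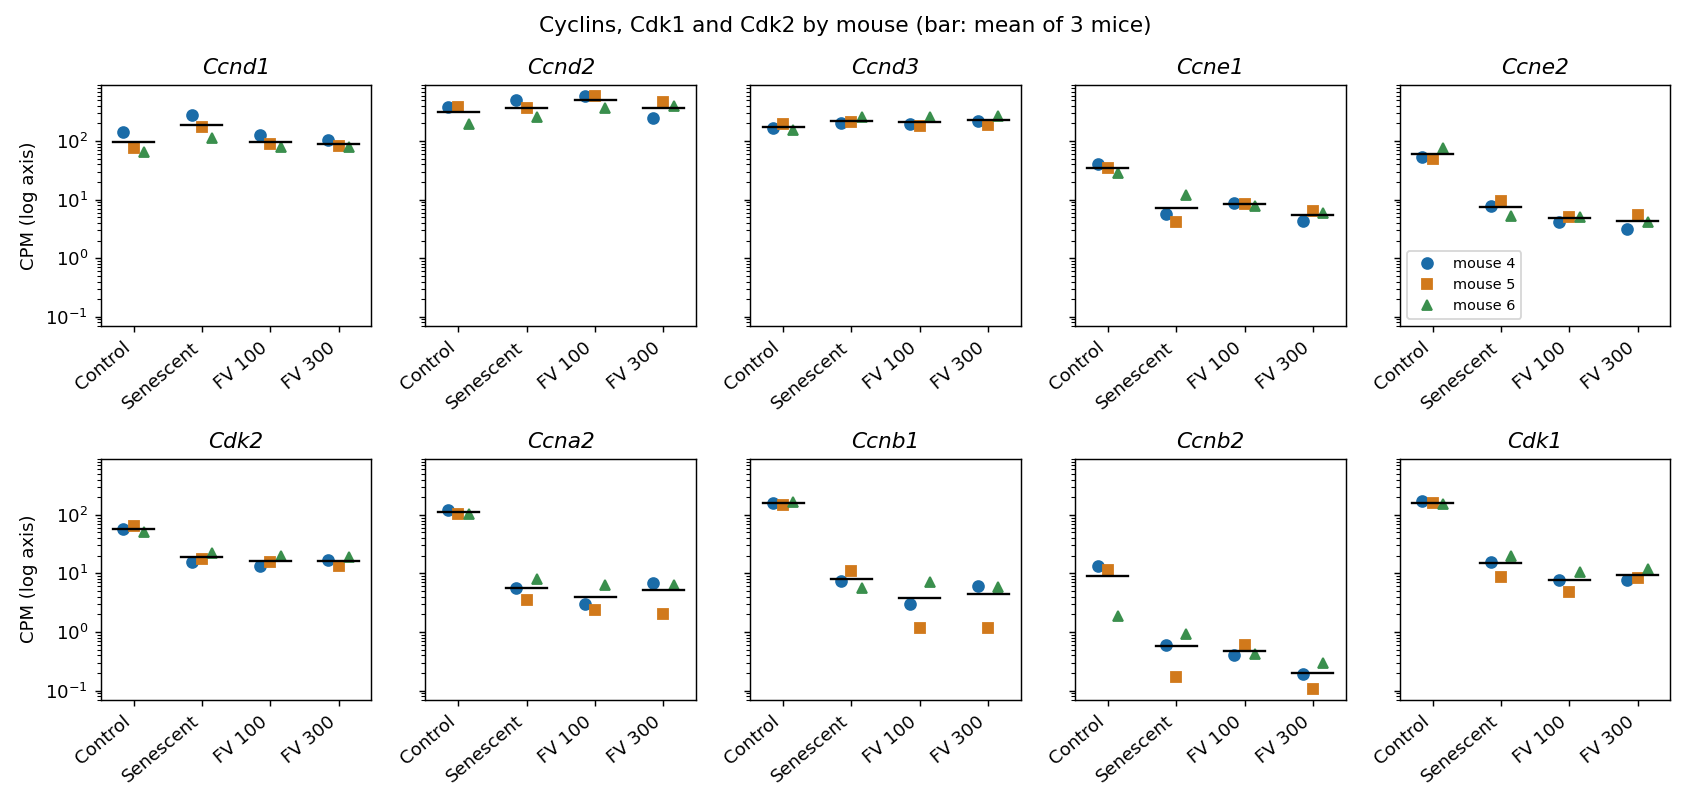
Each panel plots 1 gene in CPM (counts scaled to library size) on a log axis, by group, with 1 point per mouse and a bar at the mean of 3 mice (FV 100 and FV 300: SnCs with Fucoidan-FV at 100 and 300 μg/mL). The E, A and B cyclins, Cdk1 and Cdk2 sit lower in the 3 groups of SnCs than in control MEFs, and the D cyclins stay between 64.5 and 591 CPM in all groups.

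The order of the members by TPM, which corrects for transcript length, was turned over with senescence. In control MEFs Cdk1 stood highest at 274 ± 28.8 TPM (SD, n = 3), followed by Ccnd2 at 244 ± 30.6, and the values of these neighbours overlapped. Ccnd3 at 138 ± 6.19 TPM, Ccnb1 at 117 ± 11.8, Ccna2 at 82 ± 5.76 and Ccne1 at 56.2 ± 3.25 followed without overlap of neighbours. Ccnd1 at 44.5 ± 19.9 TPM overlapped Ccne1 as well as Cdk2 at 35.5 ± 5.03 and Ccne2 at 33.8 ± 13.2, and Ccnb2 was lowest at 9.25 ± 6.52 TPM. In SnCs the 3 D cyclins stood highest, with Ccnd2 at 312 ± 211, Ccnd3 at 168 ± 3.86 and Ccnd1 at 102 ± 56.2 TPM, and of these neighbours Ccnd2 and Ccnd3 overlapped. Cdk1 came next at 22.1 ± 2.65 TPM, above Cdk2 at 11.5 ± 0.486 and Ccne1 at 10.4 ± 3.21, and the last 2 overlapped. Ccnb1 at 6.18 ± 2.69 TPM overlapped Ccne1, and Ccna2 at 4.05 ± 1.41 and Ccne2 at 3.91 ± 1.20 TPM overlapped Ccnb1 and each other, above Ccnb2 at 0.557 ± 0.329. Of the summed TPM of the 8 cyclins, the D cyclins made up 57.3%, 63% and 56.2% in control mice 4, 5 and 6 and 96.4%, 97% and 91.7% in SnCs.

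The length that RSEM gave Ccnd2, an average over its 8 transcripts weighted by their estimated shares, changed with the library. It was 1263 to 1331 bases in the 4 libraries that stood lowest in genes with 1 transcript (control mouse 6, library 5(1), senescent mouse 5 and mouse 4 at 300 μg/mL) and 1736 to 4084 bases in the other 9. The 4 libraries belong to 3 of the 4 groups. TPM divides by this length, so senescent mouse 6, with a length of 4084 bases, had 73.5 TPM of Ccnd2 where senescent mice 4 and 5 had 390 and 474 TPM, although its CPM of 256 lay closer to their 494 and 363 CPM. For Ccnb2, with its single transcript, the length was 1531 bases throughout, while for Ccnb1 it stayed between 1803 and 2154 bases.

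**Figure D2:**
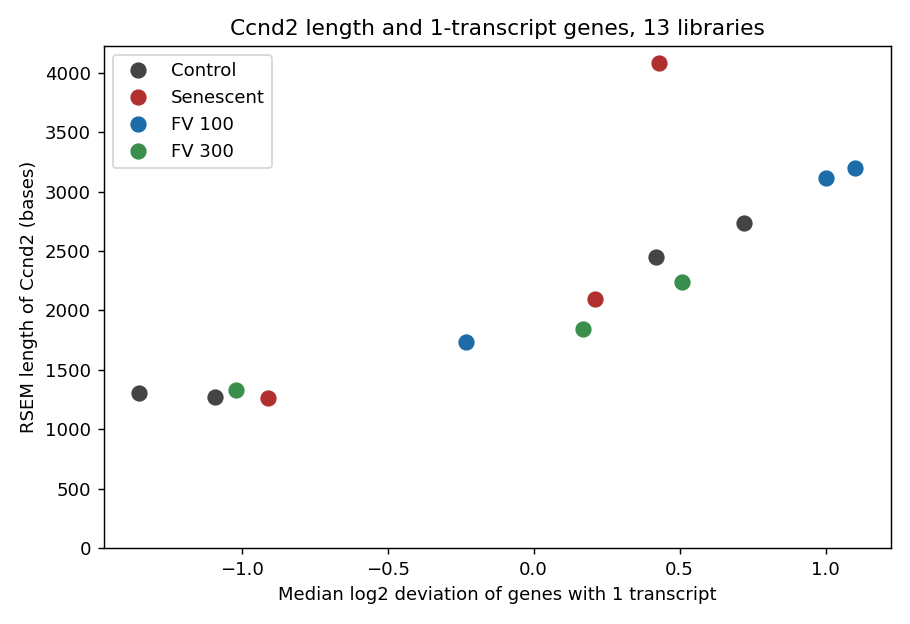
Each point is 1 of the 13 libraries, with the median log2 deviation of genes with 1 transcript on the horizontal axis and the length RSEM gave Ccnd2, in bases, on the vertical axis, coloured by group (FV 100 and FV 300: Fucoidan-FV at 100 and 300 μg/mL). The 4 libraries at the left have lengths of 1263 to 1331 bases and the other 9 have 1736 to 4084 bases.

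With Fucoidan-FV no cyclin and neither kinase was called in SnCs by the main fit, which did not use the mouse numbers. Of the 10 log2 fold changes, 8 were negative at each dose. At 100 μg/mL 0 of 10 members were called by edgeR, against 2.69% of all genes called and 1.6% called lower, and 3 members had an unadjusted p under 0.05, all lower (Ccnd1, Cdk1 and Ccne2). At 300 μg/mL 0 of 10 were called, against 1.64% of all genes and 0.885% called lower, and 2 members had an unadjusted p under 0.05, both lower (Ccnd1 and Ccne2). The share of all genes with an unadjusted p under 0.05 is not given, here or for the lists of related genes below. These counts are thus not set against a background. DESeq2 called 0 of 10 at either dose. The CPM values of 1 member did not overlap those in untreated SnCs at each dose, against 26.2% of all genes at 100 μg/mL and 19.6% at 300 μg/mL. Over the members the median log2 fold change was −0.41 at 100 μg/mL and −0.53 at 300 μg/mL, where all genes had −0.02 and 0.00. The 2 doses share the same untreated SnCs, so their differences are not independent of each other. Neural and glial markers summed to 1.23 to 5.03 TPM in untreated SnCs, 10 to 19.9 at 100 μg/mL and 8.49 to 22 at 300 μg/mL, and the muscle list to 242 to 315, 134 to 210 and 121 to 185 TPM. Their part in these values was not tested.

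In CPM, Ccnd1 lay lower under treatment in each mouse, without passing the test. It was at 277, 172 and 115 CPM in mice 4, 5 and 6 of untreated SnCs, at 125, 87.6 and 79.3 CPM at 100 μg/mL and at 105, 80.8 and 79.7 CPM at 300 μg/mL. The differences within a mouse were falls by 1.14, 0.97 and 0.54 log2 units at 100 μg/mL and falls by 1.40, 1.09 and 0.53 at 300 μg/mL, in the same order of mice. At 300 μg/mL the highest treated CPM lay below the lowest untreated one. In TPM, mouse 6 went the other way, at 39.7 TPM untreated, 44.8 at 100 μg/mL and 45.4 at 300 μg/mL, while mice 4 and 5 fell. The log2 fold changes were −0.95 (adjusted p = 0.139, SE 0.34) and −1.09 (adjusted p = 0.129, SE 0.34). Without senescent mouse 4, the highest untreated value, they were −0.36 (adjusted p = 0.58) and −0.62 (adjusted p = 0.373), and without the other mice in turn they ran down to −1.17 and −1.31. With the mouse as a block the difference at 100 μg/mL was −0.89 (adjusted p = 0.0389), short of the limit of size, while that at 300 μg/mL passed the limit and was called (adjusted p = 0.0333). With an offset for the number of transcripts the difference at 100 μg/mL was called (−1.20, adjusted p = 0.0447) and that at 300 μg/mL was not (−1.14, adjusted p = 0.081). LTO1, the neighbour on the other strand, averaged 78.7 TPM in untreated SnCs, 49.8 at 100 μg/mL and 61.2 at 300 μg/mL. Against control MEFs Ccnd1 differed by 0.04 (SE 0.34, 95% interval −0.69 to 0.77) at 100 μg/mL and by −0.10 (SE 0.34, 95% interval −0.83 to 0.63) at 300 μg/mL.

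In CPM, Cdk1 and Ccne2 had lower values with Fucoidan-FV in every mouse, without passing the test. The smallest of these differences were near 0, at −0.04 for Cdk1 in mouse 5 at 300 μg/mL and −0.05 for Ccne2 in mouse 6 at 100 μg/mL. In TPM, Cdk1 at 300 μg/mL was higher in mice 5 and 6 (21.2 and 23, against 19.4 and 22.3 untreated). Ccne2 at 100 μg/mL was higher in mouse 6 (2.82 against 2.53 TPM). All other differences of both genes were negative in TPM too. Cdk1 was at 7.67, 4.85 and 10.5 CPM in mice 4, 5 and 6 at 100 μg/mL and at 7.83, 8.39 and 11.7 CPM at 300 μg/mL, against 15.8, 8.62 and 19.9 CPM untreated. Its log2 fold changes were −0.95 (adjusted p = 0.119, SE 0.32) and −0.67 (adjusted p = 0.343, SE 0.32), and the groups overlapped at both doses. Ccne2 was at 4.23, 4.96 and 5.12 CPM at 100 μg/mL, all below the lowest untreated value of 5.3 CPM, and at 3.1, 5.55 and 4.11 CPM at 300 μg/mL. Its log2 fold changes were −0.67 (adjusted p = 0.237, SE 0.30) and −0.84 (adjusted p = 0.192, SE 0.31).

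In CPM the other members overlapped their untreated values at both doses. Among them Ccna2 and Cdk2 at 100 μg/mL and Ccnb2 at 300 μg/mL were also lower in 3 of 3 mice, and Ccnd2 at 100 μg/mL was higher in 3 of 3. The share of all genes with such a direction is not given. By TPM, Cdk2 at 100 μg/mL was instead higher in each mouse, at 13, 14.7 and 22.9 against 11.7, 10.9 and 11.9 untreated. At that dose Ccna2 was higher in mouse 6 (5.31 against 4.37 TPM). Ccnd2 was lower there in mice 4 and 5 (372 and 375 against 390 and 474 TPM). Ccnd3 lay above every untreated TPM at both doses. Ccna2 was at 3.01, 2.35 and 6.3 CPM at 100 μg/mL and at 6.98, 2.03 and 6.43 CPM at 300 μg/mL, and its intervals reached from −1.54 to 0.43 and from −1.14 to 0.83 log2 units. Ccnb1 was at 2.97, 1.17 and 7.16 CPM at 100 μg/mL and at 6.01, 1.17 and 5.93 CPM at 300 μg/mL, with mouse 5 lowest at both doses although it was the highest in untreated SnCs. Its intervals were wide, from −2.34 to 0.18 and from −2.13 to 0.39, so that a fall of several fold could not be told from none at this number of mice. Ccnb2 was at 0.407, 0.606 and 0.415 CPM at 100 μg/mL and at 0.194, 0.107 and 0.29 CPM at 300 μg/mL, on 3 to 16 counts per library. Ccne1 was at 8.8, 8.29 and 7.92 CPM and then at 4.38, 6.44 and 5.89 CPM, and its intervals were −0.56 to 0.96 and −1.15 to 0.38. Cdk2 was at 13.6, 15.9 and 19.5 CPM and at 17.2, 13.6 and 18.7 CPM, with intervals of −0.70 to 0.31 and −0.69 to 0.32. Ccnd2 was at 579, 591 and 366 CPM and at 252, 462 and 405 CPM, and Ccnd3 at 194, 181 and 260 CPM and at 219, 190 and 273 CPM. For Ccnd3 the intervals of −0.50 to 0.34 and −0.39 to 0.44 were the narrowest of the members.

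**Figure D3:**
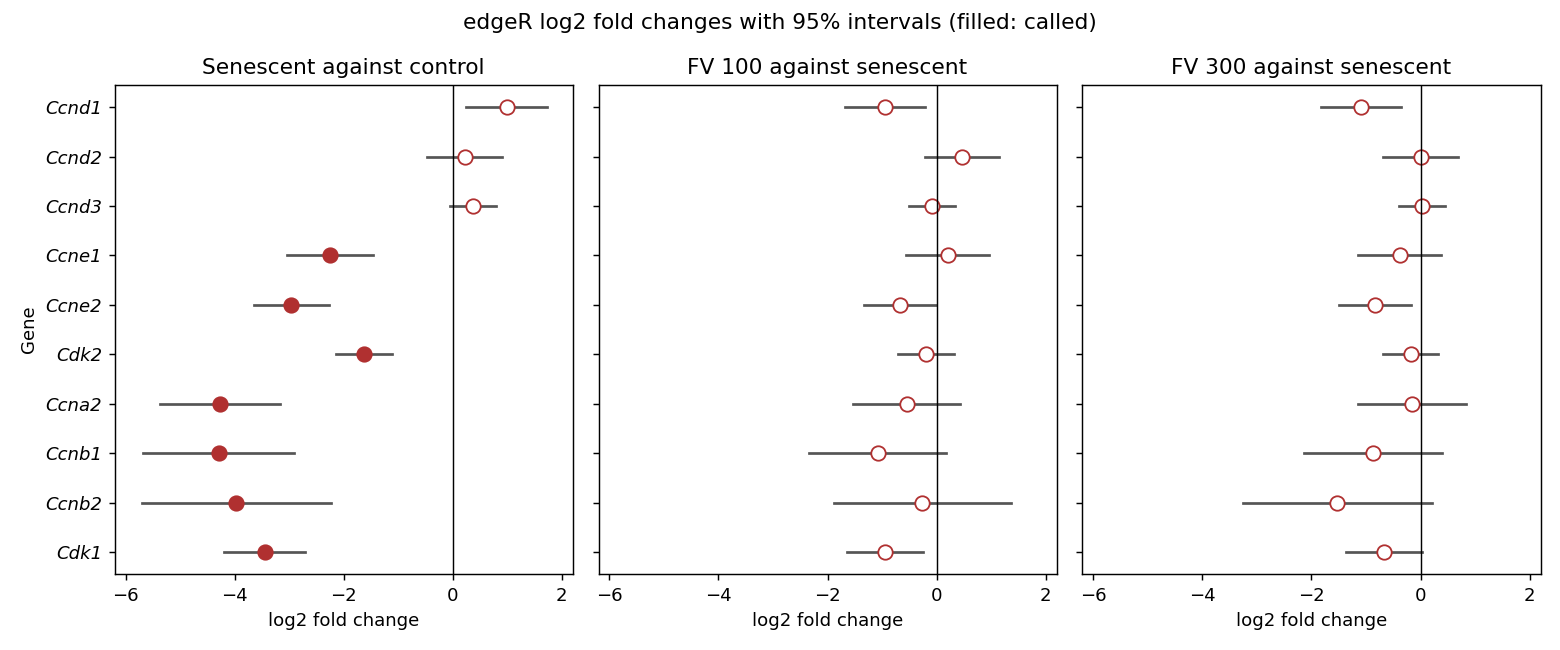
Points are edgeR log2 fold changes (horizontal axis) of each gene in 3 comparisons, with lines for the 95% intervals and filled points for calls (FV 100 and FV 300: Fucoidan-FV at 100 and 300 μg/mL). The 7 filled points are all in the comparison of SnCs with control MEFs, between −4.29 and −1.63.

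Against control MEFs, SnCs given Fucoidan-FV showed the same 7 members called lower as untreated SnCs, and the comparisons share the control mice. At 100 μg/mL 7 of 10 were called, all lower, against 19.7% of all genes called and 9.37% called lower, and 7 did not overlap, against 48.3%. At 300 μg/mL 7 of 10 were called, all lower, against 18% of all genes called and 8.11% called lower, and 7 did not overlap, against 43.3%. Ccnb1 was 41.4-fold lower than in control MEFs at 100 μg/mL (log2 fold change −5.37, adjusted p = 0.000112, SE 0.68) and 35.9-fold lower at 300 μg/mL (−5.17, adjusted p = 0.000154, SE 0.67). At 100 μg/mL it was −6.23 without treated mouse 6, which had the highest treated value, and −4.95 without treated mouse 5. Cdk1 was 21-fold lower (−4.39, adjusted p = 6.57e-06, SE 0.36) and 17.3-fold lower (−4.11, adjusted p = 9.12e-06, SE 0.36). Between the doses 0 of 10 members were called, where 0.00665% of all genes were (1 gene), and no member had an unadjusted p under 0.05. DESeq2 also called 0 members there. The intervals of this difference reached from −0.87 to 0.59 for Ccnd1 and from −0.41 to 0.97 for Cdk1.

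Ratios of members within a library do not depend on the scaling between libraries. In TPM they do depend on the length that RSEM gave each gene. The log2 ratio of Cdk1 to Cdk2 in TPM was 2.97, 2.66 and 3.22 in control mice 4, 5 and 6, 1.08, 0.83 and 0.91 in SnCs, 0.49, −0.79 and −0.34 at 100 μg/mL and 0.03, 0.85 and 0.59 at 300 μg/mL. In TPM the groups did not overlap between control MEFs and SnCs or between SnCs and 100 μg/mL. Between SnCs and 300 μg/mL they overlapped (mean difference −0.45, exact p = 0.2, adjusted 0.409). The exact two-sided permutation test gave p = 0.1 for the first 2 of these comparisons, the smallest p that 3 mice against 3 allow, and 0.375 after Benjamini-Hochberg adjustment over the 15 ratio tests. With expected counts in place of TPM the mean difference between SnCs and 100 μg/mL was −0.73 instead of −1.15, and these groups overlapped. The length of Cdk2 was 1564 bases in mouse 6 at 100 μg/mL and 2177 and 2290 bases in mice 4 and 5. The log2 ratio of Ccnd2 to Ccnd1 was 1.73, 2.99 and 2.88 in control MEFs and 1.39, 2.01 and 0.89 in SnCs, where the groups overlapped. It was 2.24, 2.78 and 3.08 at 100 μg/mL and 2.37, 2.93 and 3.13 at 300 μg/mL, above every untreated SnC at both doses (exact p = 0.1, adjusted 0.375, for each). The ratios of Ccnd3 to Ccnd1, Ccne2 to Ccne1 and Ccnb2 to Ccnb1 overlapped between groups in all 3 comparisons.

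The genes around these kinases were taken as fixed lists. Of 13 tested genes of other complex parts and switches, 6 fell in SnCs and 0 rose (8.42% of all genes called), with a median of −1.44. Cdc25c, a phosphatase that activates Cdk1, fell by 4.16 on the log2 scale (adjusted p = 0.0494, SE 1.27), with adjusted p-values from 7.97e-05 to 0.151 over the alternatives. Its call was lost when 1 mouse was left out, be it control mouse 4, 5 or 6 or senescent mouse 4 or 5 (adjusted p = 0.122, 0.101, 0.0789, 0.151 and 0.0909, in this order), and without senescent mouse 6 Cdc25c was at −5.29 (adjusted p = 0.0445). Pkmyt1, a kinase that inhibits Cdk1, fell by 3.56 (adjusted p = 0.00065, SE 0.51), so both an activator and a brake of Cdk1 were among them. The D cyclin partners Cdk4 and Cdk6 were not called, at −0.46 (adjusted p = 0.225, SE 0.23) and 0.30 (adjusted p = 0.617, SE 0.31), and were singled out after their values were seen. At either dose of Fucoidan-FV against untreated SnCs 0 of the 13 were called, by edgeR, with 1 of unadjusted p under 0.05 at each dose. Of all genes, 2.69% were called at 100 μg/mL and 1.64% at 300 μg/mL.

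Of 8 CDK inhibitors, 2 rose and 3 fell in SnCs, against 8.42% of all genes called and 3.95% called lower. Cdkn1a, which encodes p21, was at 373, 504 and 527 CPM in control mice 4, 5 and 6 and at 1569, 1866 and 1520 CPM in SnCs (log2 fold change 1.82, adjusted p = 6.80e-05, SE 0.18). Cdkn2a, which encodes p16 and p19Arf, rose by 2.46 on the log2 scale (adjusted p = 7.24e-05, SE 0.25). Cdkn3, a phosphatase of CDKs, fell by 4.17 (adjusted p = 0.0362, SE 1.18), with adjusted p-values from 0.000594 to 0.0943 over the alternatives, and it was not called when any 1 of the 6 samples was left out (adjusted p = 0.0588 to 0.0943). Cdkn2c, which encodes p18, fell by 2.34 (adjusted p = 0.00757, SE 0.49). With Fucoidan-FV 1 of 8 was called at each dose (2.69% of all genes called at 100 μg/mL and 1.64% at 300 μg/mL), and it was Cdkn1c, which encodes p57. Cdkn1c was at 30.5, 38.3 and 33.7 CPM in untreated SnCs, at 82.7, 99.2 and 76.7 CPM at 100 μg/mL and at 121, 109 and 89.5 CPM at 300 μg/mL. It rose by 1.34 (adjusted p = 0.00448, SE 0.20) and by 1.64 (adjusted p = 0.00175, SE 0.20) on the log2 scale, with every treated value above every untreated one.

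Of 18 tested E2F and pocket proteins and mitotic gene activators, 7 fell in SnCs and 0 rose, with a median of −0.50, where 8.42% of all genes were called and 3.95% called lower. E2f7, an E2F repressor, fell by 5.01 on the log2 scale (adjusted p = 0.000204, SE 0.60; −5.80 without senescent mouse 4), and Mybl2, which activates mitotic genes, fell by 4.21 (adjusted p = 0.00103, SE 0.65). Of 10 genes of cyclin degradation, 4 fell and 0 rose, with a median of −0.71. Ube2c, a ubiquitin-conjugating enzyme of the anaphase-promoting complex, fell by 3.95 (adjusted p = 0.00322, SE 0.72; −4.65 without senescent mouse 6) and Cdc20, an activator of that complex, fell by 3.19 (adjusted p = 0.00138, SE 0.51). Genes of both lists were thus among those that fell, a repressor (E2f7) as well as an activator (Mybl2). Of 26 tested cyclins and CDKs of transcription and other roles, 1 was called, a smaller share than the 8.42% of all genes. It was Ccng1, a p53 target, which rose by 1.33 (adjusted p = 0.0285, SE 0.36), with adjusted p-values from 2.32e-05 to 0.247 over the alternatives. The call was lost when control mouse 4, 5 or 6 or senescent mouse 4 or 6 was left out (adjusted p = 0.0815, 0.0841, 0.134, 0.156 and 0.0505, in this order). At both doses of Fucoidan-FV 0 genes of these 3 lists were called by edgeR (2.69% of all genes called at 100 μg/mL and 1.64% at 300 μg/mL), and 2, 1 and 3 of them at 100 μg/mL and 2, 3 and 4 at 300 μg/mL had an unadjusted p under 0.05.

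The list of D cyclin inducers and growth signals also holds Foxo1, Foxo3 and Axin2, so its counts and medians are not of inducers alone. Of its 13 tested genes, 0 were called in SnCs against control MEFs by edgeR, where 8.42% of all genes were, with 3 of unadjusted p under 0.05. Etv4 was among these 3, at −0.91 (adjusted p = 0.0444) and lower in 3 of 3 mice, short of the limit of size. At each dose of Fucoidan-FV against untreated SnCs 5 of 13 fell and 0 rose (1.6% of all genes called lower at 100 μg/mL and 0.885% at 300 μg/mL). They were Axin2, Etv4, Fosl1, Dusp6 and Myc at both doses, of which the last 2 are named because the count is small. The difference between these comparisons was not tested, and with each mouse left out 4 to 6 genes of the list were called at 100 μg/mL and 3 to 4 at 300 μg/mL. The median of the list was −0.85 at 100 μg/mL and −0.95 at 300 μg/mL. Etv4, an ETS factor downstream of ERK signals, was at 33.3, 38.8 and 43.4 CPM in mice 4, 5 and 6 of untreated SnCs, at 4.7, 4.96 and 2.39 CPM at 100 μg/mL and at 6.9, 4.77 and 4.89 CPM at 300 μg/mL. Its log2 fold changes were −3.26 (adjusted p = 0.000237, SE 0.30) and −2.80 (adjusted p = 0.000865, SE 0.29). Fosl1, an AP-1 subunit, fell by 3.20 (adjusted p = 0.00859, SE 0.56) and fell by 3.84 (adjusted p = 0.00635, SE 0.58), and Axin2, a target and brake of Wnt signals, fell by 3.50 (adjusted p = 0.0153, SE 0.68) and fell by 2.97 (adjusted p = 0.0383, SE 0.67). Over the alternatives the highest adjusted p was 0.0655 and 0.0584 for Fosl1 and 0.0772 and 0.188 for Axin2. With the mouse as a block the call of Axin2 at 300 μg/mL was lost (adjusted p = 0.0637), which left 4 called genes. Leaving out any 1 sample of that comparison other than senescent mouse 6 ended it too (adjusted p = 0.0852 to 0.188), and at 100 μg/mL it was lost without senescent mouse 5, treated mouse 4 or treated mouse 5 (adjusted p = 0.0525, 0.0772 and 0.0665). Myc was not called without senescent mouse 6 at 100 μg/mL (−0.98), nor at 300 μg/mL without senescent mice 5 or 6 or treated mice 5 or 6 (−0.96, −0.88, −0.94 and −0.99). Ccnd1, which growth signals induce, lay lower by CPM in the same mice at both doses without passing the test, and no relation between them was tested.

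**Figure D4:**
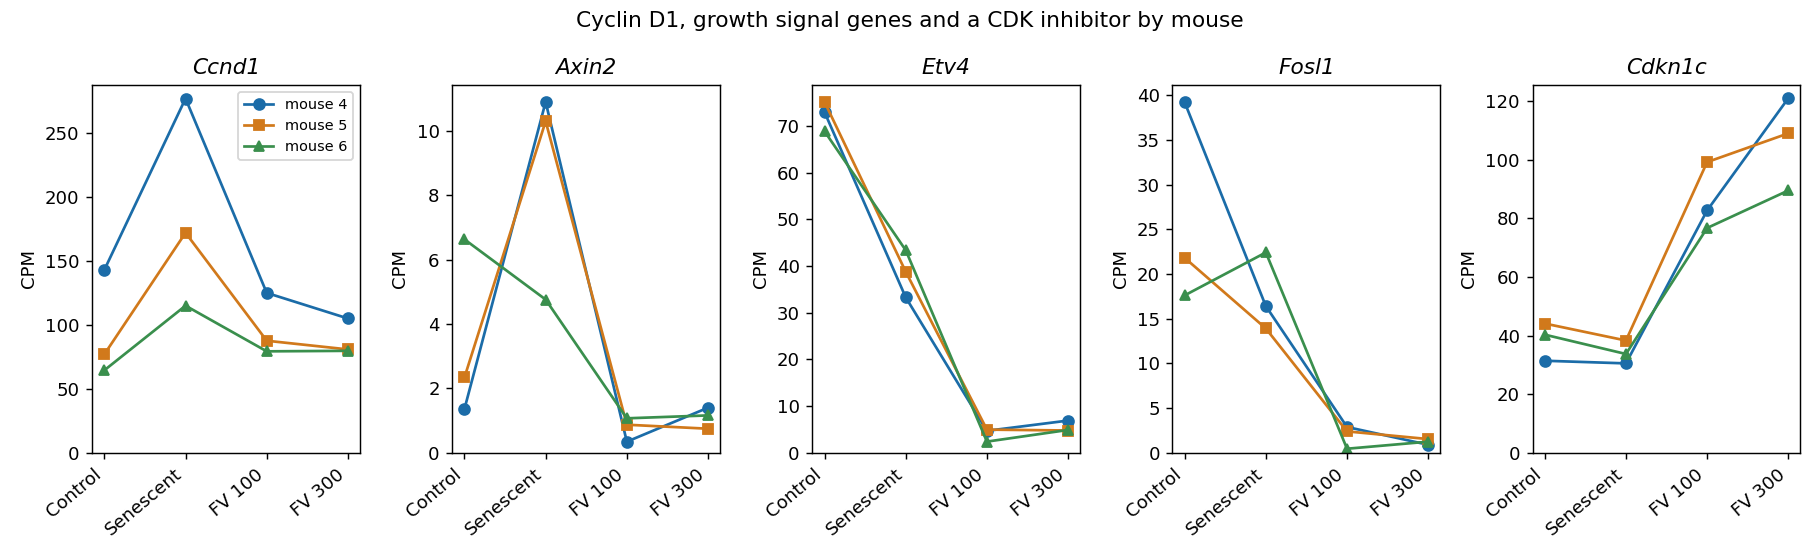
Lines join the CPM (counts scaled to library size) of each mouse across the 4 groups, for Ccnd1, the growth signal genes Axin2, Etv4 and Fosl1 and the CDK inhibitor Cdkn1c (FV 100 and FV 300: Fucoidan-FV at 100 and 300 μg/mL). Ccnd1 is highest in untreated SnCs in each mouse, Etv4 lies between 2.39 and 6.9 CPM under treatment, and Cdkn1c lies between 76.7 and 121 CPM under treatment.

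The genes most like each member over the 12 samples were found by the root mean square difference of log2 CPM, each gene centred on its own mean. For Cdk1 they were Cdca3, Dlgap5 and Mcm6 (0.288, 0.319 and 0.325 log2 units, where Cdk1 itself ranged over 5.01). For Ccna2 they were Prc1, Bub1 and Kif15 (0.294, 0.36 and 0.363), with Cdk1 at rank 12, and for Ccnb1 Uhrf1, Prc1 and E2f8 (0.474, 0.476 and 0.502), with Ccna2 at rank 6. For Ccnb2 they were Ckap2l, Ercc6l and Asf1b (0.285, 0.319 and 0.337), of which the first 2 also have a single transcript. For Ccne1 they were Cdkn2c, Idh2 and Pold2 (0.28, 0.296 and 0.297), for Ccne2 Wdhd1, Ncapg2 and Stil (0.352, 0.363 and 0.368), and for Cdk2 they included Fkbp4 and Rfc3 (0.148 and 0.17). The D cyclins had other neighbours. For Ccnd1 they were Msln, Pxylp1 and Cav2 (0.293, 0.295 and 0.327), for Ccnd2 Dpy19l3, Spred1 and Nxpe3 (0.119, 0.128 and 0.129), and for Ccnd3 they included Pgghg and Ubb (0.087 and 0.094). Of these, Nxpe3 has a single transcript and Spred1 and Ubb have 2, and the part of the library differences in such genes was not tested. Among the D cyclins themselves the nearest pair was Ccnd2 and Ccnd3, at 0.53, far behind these genes.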

How the data were processed

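RNA of MEFs was sequenced in 4 groups with mice 4, 5 and 6 (libraries 5(1) and 5(2) of control mouse 5 were summed). Per the labels, libraries were made with a stranded total RNA kit and processed with FastQC 0.12.1, Trimmomatic, STAR 2.7.11b (GRCm39) and RSEM 1.3.1. The authors deposited RSEM expected counts per gene, without normalization, and, beside them, TPM values normalized by RSEM for transcript length and library size, and these were deposited with FPKM values that were not used here. A joint table held the same expected counts.

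Expected counts were rounded to whole numbers. Genes were kept by filterByExpr (minimum count 10, total 15), which left 15034. All groups were fitted at once with edgeR 4.0.16 in R 4.3.3 (quasi-likelihood test, TMM factors, Benjamini-Hochberg adjustment over all genes tested), and a gene was called at an adjusted p under 0.05 where its log2 fold change was over 1 in size. CPM use the TMM factors. Ratios of TPM (0.01 TPM added) were tested by exact permutation. P-values of edgeR rest on the spread between samples within groups, estimated over all 4 groups together with 3 samples in each. The labels do not describe the cultures of the mice further. Library totals were 22782536 to 31278750 counts.

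The same mouse numbers recur in the labels of each group, but the labels do not say whether they name the same animals. The main fit did not pair the samples, and the fit with the mouse as a block was an alternative. Differences given for a mouse, and lines that join a mouse across groups, are between samples with the same number. The deviations of same-numbered samples from their group means correlated with a median of −0.006 in 18 pairs (from −0.20 to 0.43, with 8 over 0.1).

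The members, the lists of related genes and the tests were chosen with earlier results of these data known. All members are named, and, from each list, the 2 called genes that rose most and the 2 that fell most in senescent against control MEFs and at each dose against untreated SnCs. For each member the 3 nearest genes over 12 samples (0.5 CPM added) are named. Of these, 1 gene each for Cdk2 and Ccnd3 is not reported here. Of the lists, Ccna1, Ccnb3, E2f2 and Ccnjl did not pass the filter. Alternatives were DESeq2 1.42.0, RLE factors, other filters, only the groups compared, the mouse as a block, either or both libraries of control mouse 5, the adjusted p alone and each mouse left out. Each mouse was left out of 1 group at a time, as 1 sample. Added after seeing the data were offsets by the number of transcripts, with and without the block, and leaving out 4 libraries. Promoters were read from GRCm39 with GENCODE release M39.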

Additional observations from a re-analysis of the deposited data

How the results depend on the processing

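The 7 calls against control MEFs kept their direction and their side of the threshold in every alternative that could test the gene, and Ccnb2 could not be tested where 10 counts were required in every sample, which left 6 calls among 9 members. Leaving out each mouse gave 7 to 8 calls for senescent against control MEFs, 7 at either dose against control MEFs and 0 at either dose against SnCs. For 100 μg/mL against SnCs the count was 1 with the offset by transcript number and 2 with that offset and the mouse as a replicate block (Ccnd1 −1.15 and Cdk1 −1.05), and for 300 μg/mL it was 1 with no filter, 1 with the mouse as a replicate block and 1 with the offset and the block, each time Ccnd1. The block changed no other call of a member. The cause of these changes was not tested.

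Members that changed sign had small differences that did not pass the test. Ccnd2 was at −0.01 in senescent against control MEFs with library 5(2) alone and −0.30 without the 4 libraries, and from −0.06 to 0.44 with each mouse left out. For Ccnd2 at 300 μg/mL it was −0.11 with the offset and −0.05 with the block too against SnCs (−0.17 to 0.36 with each mouse left out), and −0.01 and −0.06 against control MEFs with library 5(2) alone and without the 4 libraries. Ccnd3 at 100 μg/mL against SnCs was 0.01 with DESeq2, RLE factors or only the groups compared, 0.00 with no filter, 0.02 with the strict filter and −0.25 to 0.17 with each mouse left out. At 300 μg/mL Ccnd3 was −0.12 with the offset, with or without the block, and −0.13 to 0.18 with each mouse left out. Ccnd1 at 100 μg/mL against control MEFs was −0.32 and −0.29 with the offset without and with the block, −0.01 without the 4 libraries and −0.19 to 0.63 with each mouse left out, and at 300 μg/mL −0.25 to 0.37. Against SnCs, each mouse left out gave −0.52 to 0.40 for Ccnb2 and −0.35 to 0.10 for Cdk2 at 100 μg/mL, and −0.44 to 0.23 for Ccna2, −0.60 to 0.21 for Ccne1 and −0.28 to 0.02 for Cdk2 at 300 μg/mL. Between the doses, Ccnd1 was 0.06 and 0.03 with the offset without and with the block (−0.28 to 0.09 with each mouse left out), Ccnb1 −0.14 without the 4 libraries (−0.21 to 1.06), Ccnd3 −0.05 to 0.28 and Ccne2 −0.40 to 0.02. Cdk2 between the doses was −0.05 with DESeq2, RLE factors or only the groups compared, −0.04 with no filter, −0.06 with the strict filter, −0.00 with the offset, −0.07 without the 4 libraries and −0.10 to 0.17 with each mouse left out. The log2 ratio of Ccnb2 to Ccnb1 was −0.46 to 1.48 for senescent against control MEFs and −1.19 to 0.54 for 300 μg/mL against SnCs with each mouse left out.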

Other observations

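The pair of libraries of control mouse 5, labelled 5(1) and 5(2), differed in most of the members. Ccnb2 was at 2.92 CPM in 5(1) and at 20 CPM in 5(2), 2.78 log2 units higher, and Ccnd2 was at 211 and 527 CPM, 1.32 higher. Ccne1 was at 29.4 and 34.5 CPM, 0.23 higher, while Ccne2 was 0.94, Cdk2 0.90, Ccnb1 0.87, Cdk1 0.78 and Ccna2 0.58 log2 units lower in 5(2). Over all genes with a single transcript the median difference was 1.98, over those with 2 transcripts 0.69 and over those with 5 to 7 transcripts −0.07. The labels do not say how the libraries differ.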
